A study of Homo sapiens with 4 samples.

Results

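The clustered protocadherins are cell-surface cadherins encoded by tandem gene arrays on the long arm of human chromosome 5. Their members were taken by gene symbol: every alpha, beta, gamma A, gamma B and C-type protocadherin symbol listed in the expression tables of HeyC2 and SKOV3 ovarian cancer cells. The rule found 53 of 26506 listed genes, of which 15 belonged to the alpha cluster, 16 to the beta cluster and 22 to the gamma cluster.

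Each alpha and gamma member has its own promoter and its own large first exon, which encodes the whole extracellular part, and is spliced to constant exons that all members of that cluster share, while beta members consist mainly of a single coding exon. In neurons each cell uses a few of these promoters, partly by chance, and CpG methylation, the DNA-binding protein CTCF and the cohesin ring take part in that choice, so that neighbouring cells carry different sets of adhesion molecules. The C-type members (PCDHAC1, PCDHAC2, PCDHGC3, PCDHGC4 and PCDHGC5) lie at the end of the alpha and gamma arrays and are used more uniformly, and methylation of protocadherin promoters is known from several kinds of tumour.

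The libraries were 1 TET1 and 1 control library from HeyC2 and 1 TET1 and 1 control library from SKOV3. Both arms of each line were transfected with 3 μg of plasmid, pCMV6 carrying TET1 or the empty plasmid, and both were kept in 400 μg/ml Geneticin, so selection was common to all 4 cultures. TET1 is an enzyme that oxidises 5-methylcytosine and thereby starts DNA demethylation, here driven from the plasmid's viral promoter. Whether the selected cells were 1 clone or a pool was not given in the sources used here. With 1 library per condition in each line, no value of a line has a replicate check and no test within a line could be made, and a fit of a change common to both lines was not made.

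The unit was FPKM, fragments per kilobase of transcript and scaled to sequencing depth. Each TET1 column had been multiplied by 1 constant, 3.23 in HeyC2 and 1.35 in SKOV3, which made GAPDH equal in both columns of a line, and that constant was divided out before any value below was taken. The size of the fold also needs a reference: a relative log2 change is the log2 ratio of TET1 to control, each with 0.1 FPKM added, minus the median over all genes of the line with a mean of at least 0.5 FPKM, which was 0.07 in HeyC2 and 0.24 in SKOV3. A member was counted as higher or lower where this change reached 1.5-fold. The libraries held about 6660000 to 7410000 fragments by the step size of low values. TET1 itself was listed at 0.20 FPKM in control cells and 0.52 in TET1 cells of HeyC2, and at 0.43 and 1.80 in those of SKOV3. Both TET1 libraries were thus above their controls, at a low level. The epithelial genes KRT8 and KRT18 and the Mullerian factor PAX8 were listed above 70 FPKM in all 4 libraries, whereas WT1 and MUC16 were at or below 0.53. EPCAM and CDH1 were at or below 0.38 FPKM in both HeyC2 libraries and at 2.24 or above in both SKOV3 libraries. SOX17 was lower with TET1 in both lines, at 7.01 and 2.64 FPKM in HeyC2 and 79.38 and 42.21 in SKOV3. KRT19 was listed at 255.14 FPKM in SKOV3 without TET1 and 0.46 with it, so that pair of libraries differed strongly outside the protocadherins too. Of the 3 mesenchymal markers, VIM was at 7496.18 and 2926.91 FPKM in HeyC2 and 1223.43 and 834.83 in SKOV3, FN1 was at 5556.55 and 2618.93 in HeyC2 and 32.56 and 45.40 in SKOV3, and CDH2 was higher in HeyC2, at 26.87 and 43.24. Of 6 neuronal markers, ELAVL3 and ELAVL4 were at 0 in all 4 libraries. RBFOX3 was the only neuronal marker above 1 FPKM, at 8.73 and 27.11 in control and TET1 cells of HeyC2, and the list summed to 8.80 and 27.40 FPKM there and to 1.05 and 0.93 in SKOV3. The 4 fibroblast markers summed to 2.11 and 2.88 FPKM in HeyC2 and to 0.91 and 31.98 in SKOV3, where COL1A1 alone went from 0.32 to 27.66 and DCN was at 0.08 and 0.00. The 4 blood markers summed to at most 0.94 FPKM. The part of these markers in the protocadherin values was not tested.

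All 53 members lie on the plus strand of chromosome 5. By the GENCODE annotation of GRCh37, the build the reads had been aligned to, the alpha cluster spans chr5:140165721-140391932, the beta cluster chr5:140430959-140628933 and the gamma cluster chr5:140710081-140892544, 727 kb in all. Alpha and gamma members have 4 exons, a variable first exon of 2355 to 3027 bases and 3 shared ones, and 14 of the 16 beta members have 1 exon. Reads in the shared exons fit every member of a cluster and were divided among them by the quantification software, and beta members resemble each other closely, so the value of a single member is uncertain. The library kit did not mark strand, so transcripts antisense to a member could not be told apart from it.

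The promoters show what the members have in common. RefSeq promoter windows of GRCh38.p14, 300 bases from 250 before the transcription start to 50 from it on, were found for 47 of the 53 members, all but PCDHA3, PCDHA13, PCDHB6, PCDHB11, PCDHGA12 and PCDHGC5. Stretches of 36 bases around the CGCT letters, which form the core of an element long known in these promoters, are printed for members on which the values below turn, 5′ to 3′ on the plus strand of that build, with CGCT in capitals.
PCDHA4 (chr5:140806975-140807010): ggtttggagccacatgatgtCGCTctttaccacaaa
PCDHA12 (chr5:140875240-140875275): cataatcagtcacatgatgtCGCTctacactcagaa
PCDHB7 (chr5:141172562-141172597): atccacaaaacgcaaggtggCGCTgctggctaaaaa
PCDHB9 (chr5:141187070-141187105): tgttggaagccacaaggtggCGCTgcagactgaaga
PCDHB10 (chr5:141192295-141192330): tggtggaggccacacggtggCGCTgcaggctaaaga
PCDHB14 (chr5:141223259-141223294): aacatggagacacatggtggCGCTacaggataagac
PCDHGA9 (chr5:141402710-141402745): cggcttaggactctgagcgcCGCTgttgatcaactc
PCDHGA10 (chr5:141412927-141412962): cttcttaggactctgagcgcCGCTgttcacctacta
PCDHAC1 (chr5:140926216-140926251): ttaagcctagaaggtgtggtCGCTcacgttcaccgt
The beta stretches carry the same letters just before CGCT, and so do the alpha and the gamma A stretches within their own groups, whereas that of PCDHAC1 differs from these. Where a window held several matches, the one nearest the start is shown. In these 9 stretches CGCT began at positions -73 to -38 relative to the start. The letters GNCGCT, searched on both strands, occurred in 45 of the 47 windows, or 95.7%, against 43.9% of the windows of all 27305 genes in the table. On the plus strand, 42 members held it 5 to 130 bases before the start, at a median position of -50. Longer words that overlap CGCT were found in fewer genes. GATGTCGCT occurred in 9 of 11 windows of PCDHA1 to PCDHA13 and in 0.103% of all windows. GGTGGCGCT occurred in 13 of 14 beta windows and in 0.524% of all windows. CGCTGTT occurred in 10 of 11 gamma A windows, in 3 of 7 gamma B windows and in 2.29% of all. These words can be read in the members' own stretches above, so high shares in the members' windows are no separate finding. A match is a description of letters and says nothing on binding.

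CpG dinucleotides, the sites at which TET1 can act, were unevenly spread over the promoters. The windows of the 4 C-type members held 27 (PCDHAC1), 15 (PCDHAC2), 18 (PCDHGC3) and 23 (PCDHGC4) CpGs. The windows of PCDHA1 to PCDHA13 held 3 to 9, those of the beta members 5 to 12, those of gamma A 2 to 12 and those of gamma B 7 to 16. The median over all genes was 14, so every C-type window lay above it, and of the other members PCDHGB6 alone did. These counts use the reference sequence alone and no expression value.

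**Figure D1:**
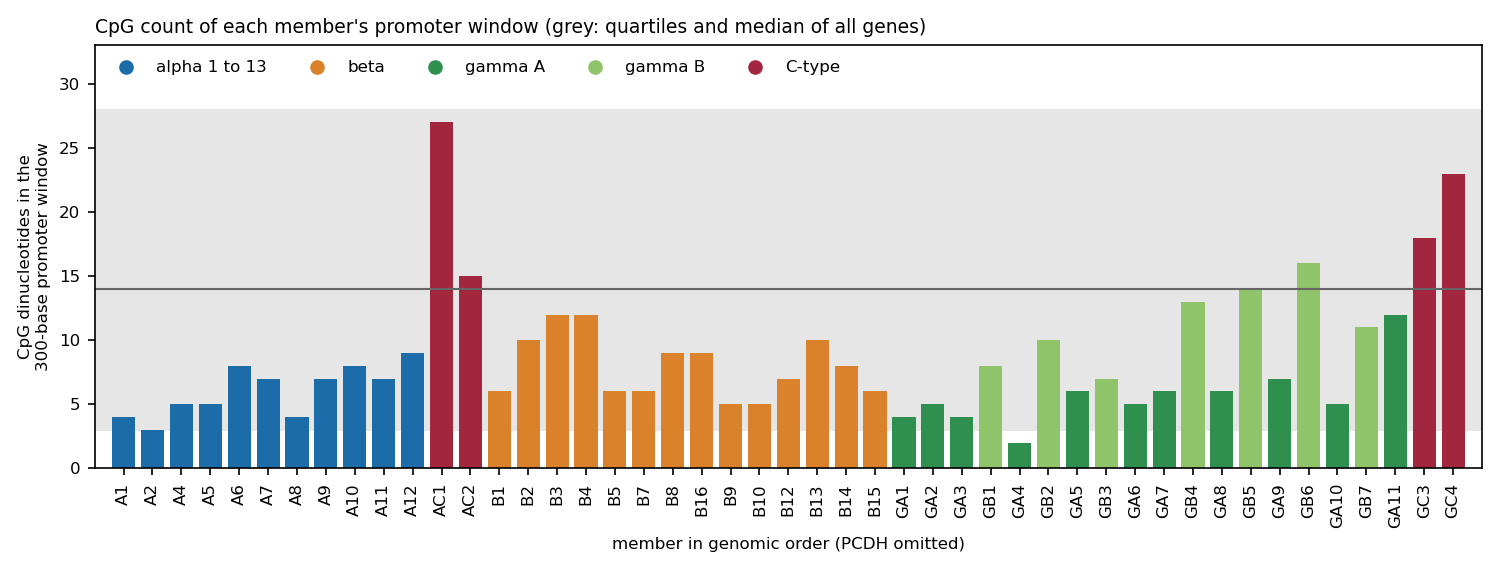
CpG dinucleotides (y axis, count per 300-base window) in the promoter of each of 47 members in genomic order (x axis), coloured by group, with the quartiles and median of all genes as a grey band and line. The C-type bars reach 15 to 27 and the alpha 1 to 13 bars 3 to 9.

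In the control libraries the 2 lines used the clusters differently. The tables had been normalised separately, so levels are set side by side here only. In HeyC2 control cells the 53 members summed to 75.02 FPKM, of which the gamma cluster made up 84.9%, the beta cluster 9.3% and the alpha cluster 5.8%. A pair of gamma members, PCDHGC3 and PCDHGA10, held 78.9% of the whole sum. In SKOV3 control cells the members summed to 91.49 FPKM, with 43.2% from the beta, 36.8% from the gamma and the rest from the alpha cluster. There the highest pair of members held 23.5%. Of the 53 members, 37 were above 0 in the HeyC2 control and 51 in the SKOV3 control, and 11 and 34 reached 0.5 FPKM. Across the 53 members, Spearman's rho between the 2 controls was 0.31, and across the 16 beta members it was -0.06. The same coefficient between control and TET1 of 1 line was 0.80 in HeyC2 and 0.80 in SKOV3, so the order of members was kept more closely within a line than between lines. These coefficients are across genes that share libraries and exons and carry no p-value.

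By mean level over the 4 libraries, which weights the line with the higher value and sets separately normalised tables together, the highest members were PCDHA3, PCDHA12 and PCDHA4 in the alpha cluster, PCDHB2, PCDHB8 and PCDHB5 in the beta cluster and PCDHGC3, PCDHGA10 and PCDHGB2 in the gamma cluster. PCDHA12 owed its place to SKOV3, at 4.83 and 3.93 FPKM, beside 0.34 and 0.31 in HeyC2. PCDHGC3 was listed at 42.10 FPKM in control cells and 40.91 in TET1 cells of HeyC2, and at 6.78 and 4.94 in those of SKOV3. PCDHGA10 was listed at 17.11 and 16.13 in HeyC2 and at 6.29 and 10.66 in SKOV3. Both were thus the leading members in HeyC2 with or without TET1.

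PCDHB2 showed the opposite placing, at 0.05 and 0.00 FPKM without and with TET1 in HeyC2, and at 13.27 and 19.50 in SKOV3. PCDHB8 was at 0.00 and 0.13 in HeyC2 and 8.20 and 13.98 in SKOV3, and PCDHB5 at 0.00 and 0.05 in HeyC2 and 4.97 and 8.99 in SKOV3. In HeyC2 these 3 beta members rested on about 2.2 fragments at most per library, while in SKOV3 each rested on 117 or more. The highest beta member of HeyC2 was PCDHB10 in control and PCDHB14 in TET1 cells.

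**Figure D2:**
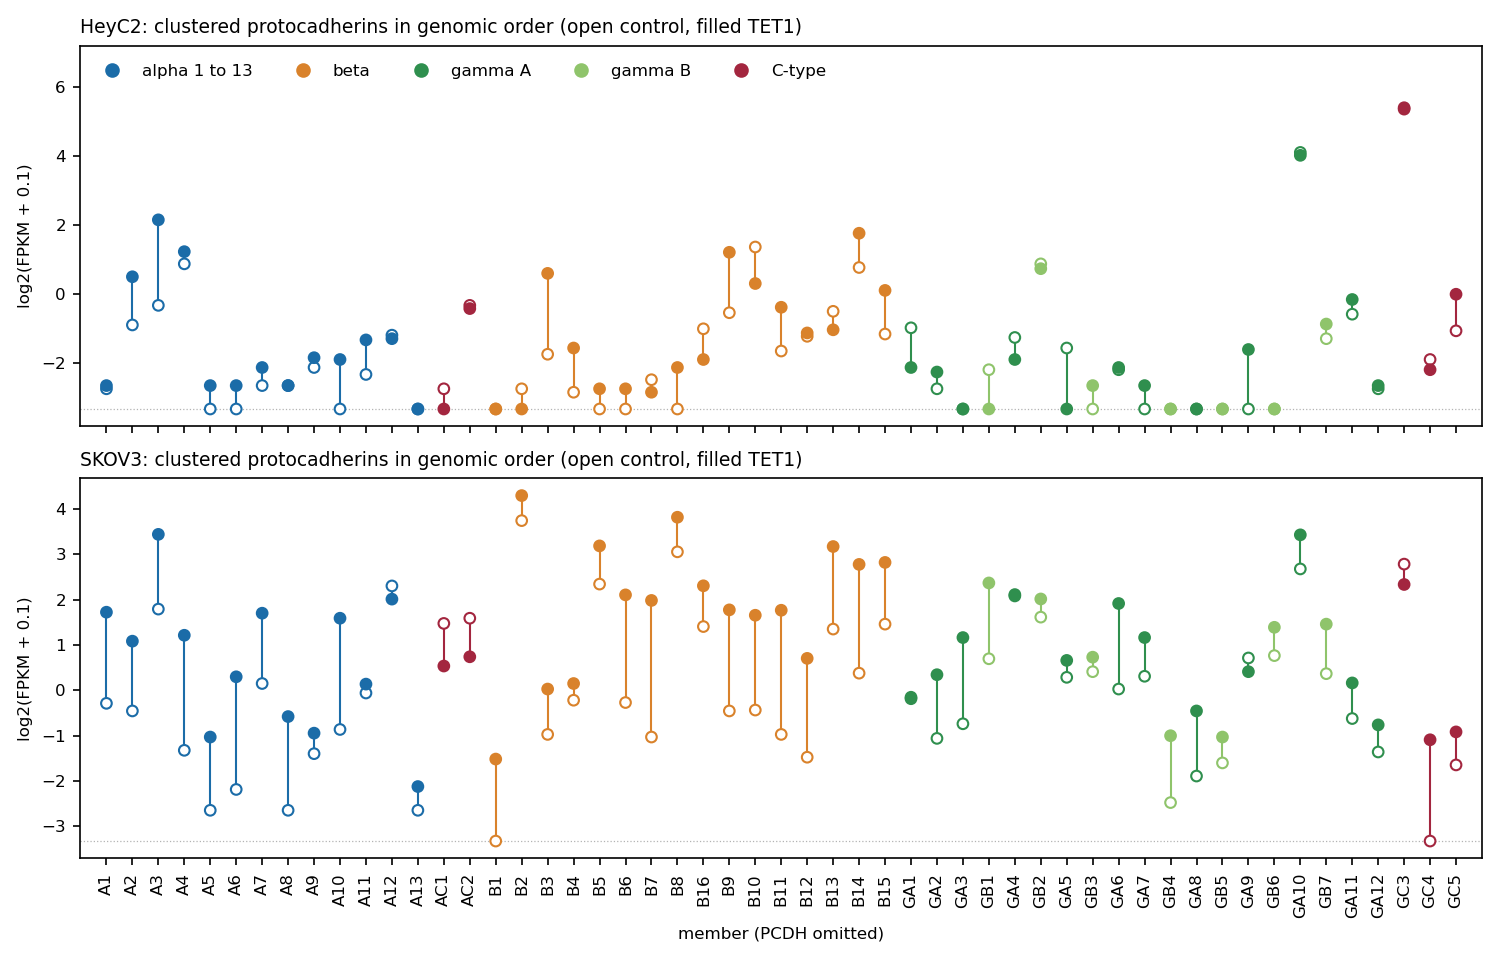
Level of each member, log2(FPKM + 0.1), in HeyC2 (upper panel) and SKOV3 (lower panel), in genomic order along the x axis, with open circles for control and filled circles for TET1 libraries (1 library each). PCDHGC3 and PCDHGA10 stand far above the other members in HeyC2, whereas many alpha and beta members lie higher after TET1 in SKOV3.

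TET1 was compared with control first for whole clusters, since the sum of alpha or gamma members, whose transcripts are of similar length, depends little on how shared reads were divided. Beta transcripts run from 2750 to 7973 bases, so the beta sum does depend on which member a read was given to. In HeyC2 the alpha cluster summed to 4.37 FPKM in control and 9.90 in TET1 cells, a relative change of 1.09 on the log2 scale (95% exact binomial interval of the estimated fragments, 0.69 to 1.5). The beta cluster summed to 6.96 and 11.16 FPKM, a relative change of 0.60 (0.33 to 0.87). The gamma cluster was 63.69 FPKM in control and 61.83 in TET1 cells, a relative change of -0.12 (-0.24 to 0.01). These intervals cover counting error only. PCDHA3 held much of the alpha change: without it the relative change of the alpha sum was 0.51.

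In SKOV3 all 3 sums were higher in the TET1 library. The alpha cluster was 18.33 FPKM in control and 34.73 in TET1 cells, a relative change of 0.68 (0.48 to 0.88). The beta cluster was 39.52 and 91.35 FPKM, a relative change of 0.97 (0.86 to 1.08), which was the largest of the 3 there. The gamma cluster was 33.64 and 51.89 FPKM, a relative change of 0.38 (0.23 to 0.54).

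The level of the genes mattered for how these changes compare with the rest of the transcriptome. In SKOV3, genes with a mean of 0.5 to 5 FPKM had a median relative change of 0.49, and against that median the alpha, beta and gamma sums changed by 0.18, 0.47 and -0.11. That median matches only part of each sum. PCDHA3, PCDHB2, PCDHB5, PCDHB8, PCDHB13, PCDHGA10 and PCDHGC3 had means of at least 5 FPKM, and genes of 5 to 20 FPKM had a median of -0.00. In HeyC2 the median of such genes was 0.08. Olfactory receptor genes, which work in the nose, were summed as a measure of background: 379 of them summed to 1.34 and 1.78 FPKM in HeyC2 control and TET1 and to 7.74 and 9.34 in SKOV3. The part of these shifts in the protocadherin values was not tested.

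**Figure D3:**
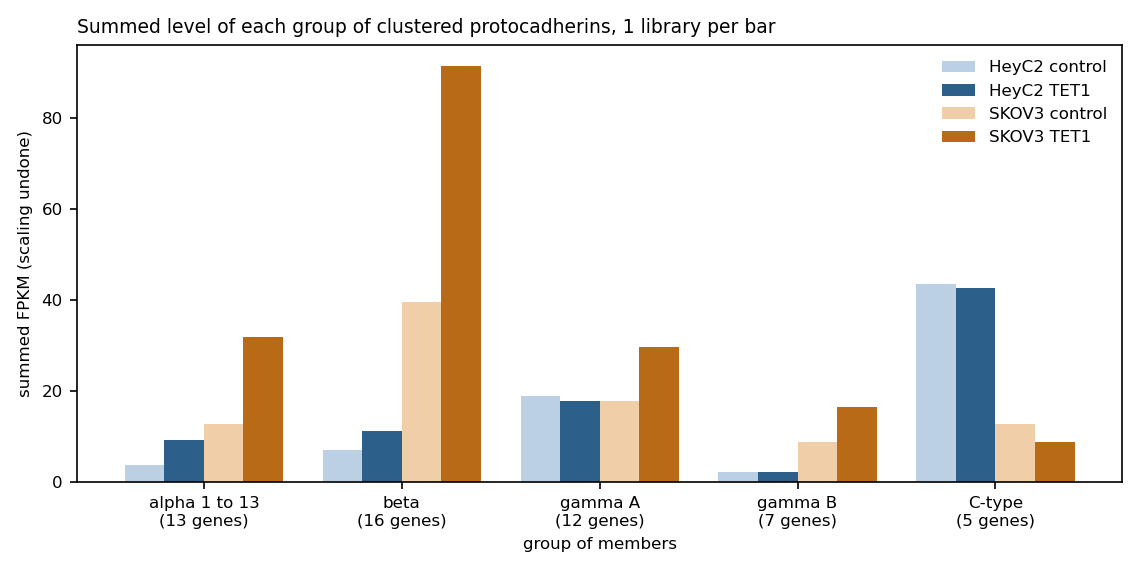
Summed FPKM (y axis, scaling undone) of each group of members (x axis) in each of the 4 libraries, 1 bar per library. The beta bars reach 39.52 and 91.35 in SKOV3, and the C-type group is the highest in both HeyC2 libraries and lower after TET1 in SKOV3 (12.59 against 8.66).

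Member by member, 15 of the 53 had a mean of at least 0.5 FPKM in HeyC2. Of these, 7 were at least 1.5-fold higher in the TET1 library, or 46.7%, where 16.8% of all genes with such a mean and 26.7% of those with a mean of 0.5 to 5 FPKM were. Another 2 members were at least 1.5-fold lower, or 13.3%, against 12.5% of all genes and 18.2% of genes of 0.5 to 5 FPKM. The median relative change of the 15 members was 0.35. These are descriptions: 4 of the 7 higher members, PCDHA2, PCDHB3, PCDHB15 and PCDHGC5, lay below 0.5 FPKM in the control and passed only through the TET1 library, and PCDHB13 passed only through the control. The remaining 38 members lay between 0.00 and 0.67 FPKM, with 20 higher and 10 lower in the TET1 library, and 7 were at 0 in both.

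The 3 largest changes in HeyC2 were those of PCDHA3, PCDHB3 and PCDHB9, each of which encodes a separate extracellular domain used in recognition between cells. PCDHA3 (chr5:140180613-140391932, GRCh37) was listed at 0.70 FPKM in control and 4.35 in TET1 cells, about 12.3 and 68.8 fragments, a relative log2 change of 2.40 (1.71 to 3.62). PCDHB3 was at 0.20 and 1.42 FPKM, a relative log2 change of 2.27 (1.28 to 4.39). PCDHB9 was at 0.59 and 2.22 FPKM, a relative log2 change of 1.67 (1.09 to 2.71). All 3 were several times higher in the TET1 library and their intervals lay above 0. PCDHA2, PCDHB15, PCDHGC5 and PCDHB14 followed with relative log2 changes of 1.32, 1.19, 0.98 and 0.92. PCDHB14, the least changed of the higher members, went from 1.61 to 3.30 FPKM. PCDHGA11, the next in rank and short of the limit, went from 0.57 to 0.80 FPKM at a relative log2 change of 0.35. The interval of PCDHGC5 (-0.20 to 2.71) included no change.

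The 2 lower members in HeyC2 were both beta genes. PCDHB10 (chr5:140571926-140575220, GRCh37) was at 2.48 FPKM in control and 1.14 in TET1 cells, a relative log2 change of -1.13 (-1.95 to -0.48). PCDHB13 was at 0.61 and 0.39 FPKM, a relative log2 change of -0.61 with an interval from -1.79 to 0.37 that included no change. PCDHGB2, the next in rank on the lower side but well short of the limit, was at 1.74 and 1.57 FPKM, a relative log2 change of -0.21. The 2 most abundant members, PCDHGC3 and PCDHGA10, changed by -0.12 (-0.27 to 0.04) and -0.16 (-0.40 to 0.08) relative to all genes.

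In SKOV3, 42 of the 53 members had a mean of at least 0.5 FPKM. Of these, 25 were at least 1.5-fold higher in the TET1 library, or 59.5%, where 25.8% of all genes with such a mean and 47.2% of genes with a mean of 0.5 to 5 FPKM were. Another 3 were at least 1.5-fold lower, or 7.14%, against 21.4% of all genes and 15.8% of genes of 0.5 to 5 FPKM. Within the band of 0.5 to 5 FPKM lay 35 of the 42 members, and 22 of them, or 62.9%, were higher. The median relative change of these 35 was 1.12, beside 0.49 for all genes of the band. Of the 25 higher members, 8 lay below 0.5 FPKM in the control and passed only through the TET1 library, and the other 11 members, between 0.00 and 0.63 FPKM, were all higher in the TET1 library without passing.

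**Figure D4:**
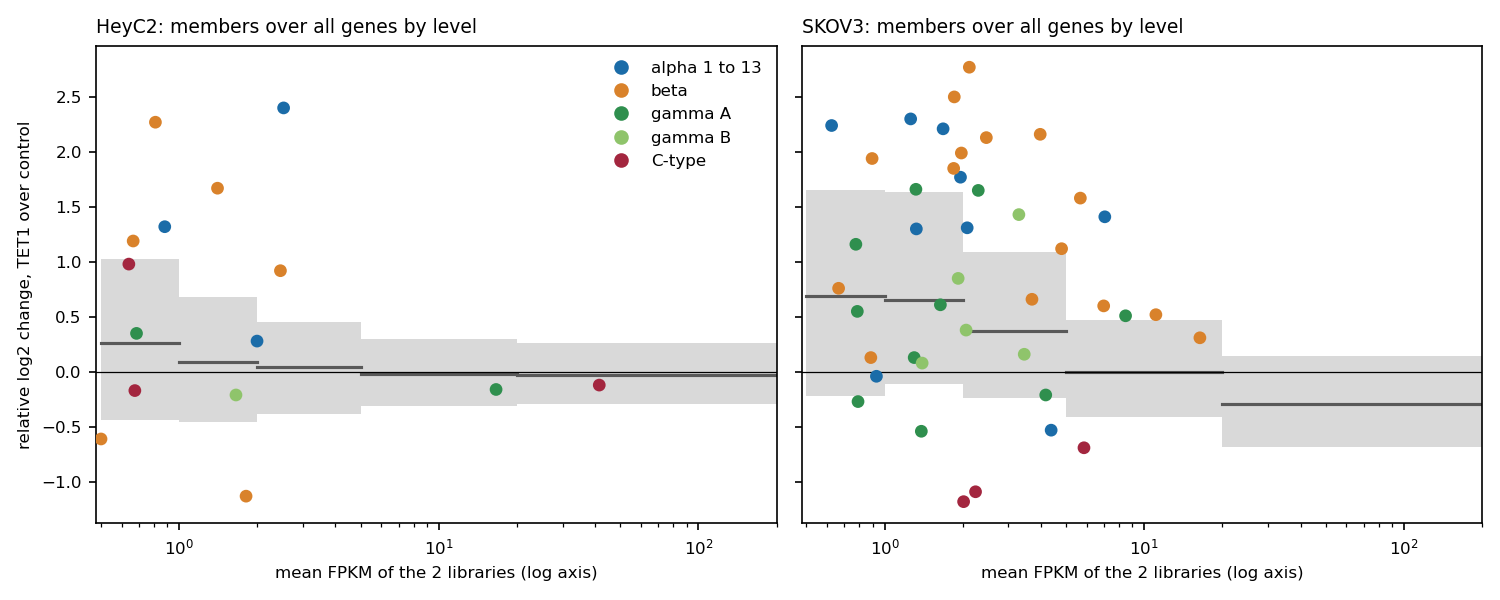
Relative log2 change of each member that passed (y axis) against its mean FPKM in the line (x axis, log scale), over the quartiles (grey) and median (line) of all genes in 5 bands of level. In SKOV3 the medians of all genes run from 0.69 in the lowest band to -0.29 in the highest. Many alpha and beta members lie above the grey band there. Below it lie the C-type members and also PCDHA12, PCDHGA9 and PCDHGA1.

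The beta cluster held 12 of the 25 higher members in SKOV3, out of 15 beta members that passed, and none of the lower ones. This share was 80%, beside 25.8% of all genes and 47.2% of genes of 0.5 to 5 FPKM. It is a description only: PCDHB3, PCDHB7, PCDHB11 and PCDHB12 lay below 0.5 FPKM in the control and passed only through the TET1 library. PCDHB7 (chr5:140552225-140555964, GRCh37) was at 0.39 FPKM in control and 3.85 in TET1 cells, about 10.1 and 91.7 fragments, a relative log2 change of 2.77 (2.15 to 4.20). PCDHB11 was at 0.41 and 3.30 FPKM, a relative log2 change of 2.50 (1.89 to 3.77). PCDHB14 was at 1.2 and 6.75 FPKM, a relative log2 change of 2.16 (1.74 to 2.81). The 3 beta members highest in control cells stood nearer to the limit. Level in control did not set the order throughout: PCDHB4, at 0.76 FPKM there, changed least of the beta members that passed, by 0.13 (-0.70 to 1.14). PCDHB2 changed by 0.31 (0.12 to 0.51), PCDHB8 by 0.52 (0.23 to 0.83) and PCDHB5, just inside the limit, by 0.60 (0.28 to 0.96). Against genes of 0.5 to 5 FPKM, PCDHB2, PCDHB8 and PCDHB5 changed by -0.18, 0.03 and 0.11. Their own means lay above 5 FPKM, however. Genes with a mean of 5 to 20 FPKM in SKOV3 had a median relative change of -0.00 and quartiles of -0.41 and 0.47.

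Of the 9 members among PCDHA1 to PCDHA13 that passed in SKOV3, 7 were higher, or 77.8%, beside the 25.8% of all genes and 47.2% of genes of 0.5 to 5 FPKM given above. Of these, PCDHA4, PCDHA6 and PCDHA10 lay below 0.5 FPKM in the control and passed only through the TET1 library. PCDHA4 was at 0.30 FPKM in control and 2.22 in TET1 cells, a relative log2 change of 2.30 (1.33 to 4.40). With a pseudocount of 1 FPKM its change was 1.10. PCDHA3, the highest alpha member with TET1, was at 3.36 and 10.74 FPKM, a relative log2 change of 1.41 (1.01 to 1.91). PCDHA12 stood apart among them, at 4.83 and 3.93 FPKM, a relative log2 change of -0.53 (-1.04 to -0.05), below no change but short of the limit. It was the highest alpha member of the control and came after PCDHA3 in the TET1 library.

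Of the 10 gamma A and 5 gamma B members that passed in SKOV3, 4 and 2 were higher and none was lower. These shares, 40% each, lay above that of all genes and below that of genes of 0.5 to 5 FPKM, 47.2%. Among the 4 higher gamma A members, PCDHGA2 lay below 0.5 FPKM in the control and passed only through the TET1 library. The interval of PCDHGA7 (-0.19 to 1.52), another of them, included no change. PCDHGA3, PCDHGA6 and PCDHGB1 had the largest relative log2 changes of the gamma A and gamma B members, at 1.66, 1.65 and 1.43. PCDHGB1 was at 1.52 FPKM in control and 5.06 in TET1 cells and became the highest gamma B member. PCDHGA11, just outside the limit, was at 0.55 and 1.02 FPKM, and PCDHGA9, on the lower side, at 1.54 and 1.23 FPKM with a relative log2 change of -0.54 (-1.46 to 0.34).

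All 3 lower members in SKOV3 were C-type, and all 3 C-type members that passed were lower. None of the 39 other members that passed was lower. Of all genes with a mean of at least 0.5 FPKM, 21.4% were lower, and of genes of 0.5 to 5 FPKM 15.8% were. PCDHAC1 (chr5:140305884-140391932, GRCh37), whose promoter window was the richest in CpG, was at 2.68 FPKM in control and 1.35 in TET1 cells, a relative log2 change of -1.18 (-1.95 to -0.53). PCDHAC2 was at 2.91 and 1.57 FPKM, a relative log2 change of -1.09 (-1.85 to -0.47). PCDHGC3 was at 6.78 and 4.94 FPKM, just inside the limit at -0.69 (-1.13 to -0.28). This pattern depended on the centring: against the median of genes of 0.5 to 5 FPKM, 7 members were lower, the 3 C-type ones and also PCDHA12 (-1.02), PCDHGA9 (-1.04), PCDHGA1 (-0.77) and PCDHGA4 (-0.70). With no centring on the median of all genes, PCDHGC3 changed by -0.45 and was short of the limit. PCDHGC4 and PCDHGC5 did not pass: they were at 0.00 and 0.37 FPKM and at 0.22 and 0.43 FPKM, both higher in the TET1 library. Without the C-type members the alpha sum changed by 1.07 and the gamma sum by 0.55. In HeyC2 the C-type members did not share this direction: of the 3 that passed, 1 was higher and 0 were lower. The higher one was PCDHGC5, at 0.38 and 0.90 FPKM, a relative log2 change of 0.98 with an interval that included no change. PCDHGC3 changed by -0.12 there. PCDHAC2 was at 0.70 and 0.65 FPKM in HeyC2, a relative log2 change of -0.17, and PCDHAC1 at 0.05 and 0.00. In bulk RNA, fewer cells using a promoter and less RNA from each cell cannot be told apart.

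**Figure D5:**
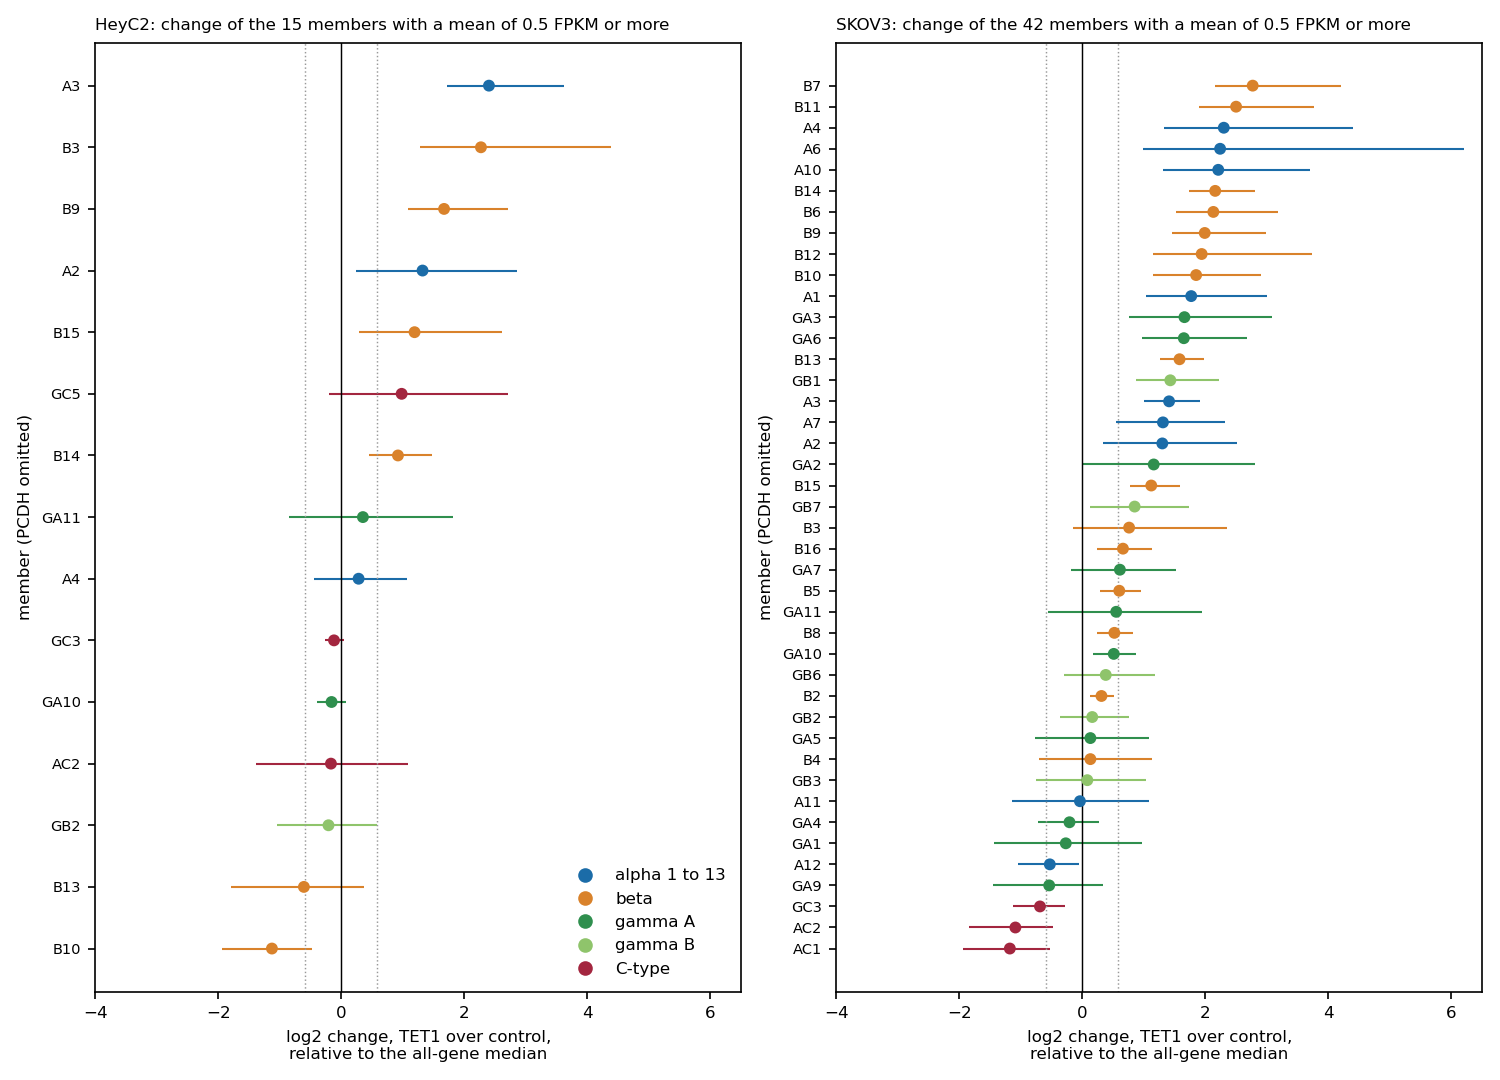
Relative log2 change of each member that passed (x axis, TET1 over control, minus the all-gene median) in HeyC2 (left) and SKOV3 (right), ordered by size, with 95% counting intervals as lines and the 1.5-fold limits dotted. The C-type members are the 3 lowest points in SKOV3, and PCDHB7 is the highest at 2.77.

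Over the 39 members that passed in SKOV3 and had a promoter window, Spearman's rho between CpG count and relative change was -0.37, and over 13 members in HeyC2 it was -0.15. These members share libraries and, within a cluster, exons, and the C-type members are both CpG-rich and lower in SKOV3, so the coefficient is given as a description.

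A total of 14 members passed in both lines. Of these, 6 were higher in both, namely PCDHA2, PCDHA3, PCDHB3, PCDHB9, PCDHB14 and PCDHB15, and none was lower in both. Of the 12126 genes that passed in both lines, 5.8% were higher in both and 3.36% lower in both. Those shares take genes of every level, and genes of 0.5 to 5 FPKM were more often higher, 26.7% in HeyC2 and 47.2% in SKOV3. PCDHA2, PCDHB3 and PCDHB15 lay below 0.5 FPKM in the HeyC2 control and passed there only through the TET1 library. PCDHB3 did so in SKOV3 too. The SKOV3 interval of PCDHB3 (-0.16 to 2.36) included no change, and its change there was 0.24 with a pseudocount of 1 FPKM and 0.27 against genes of 0.5 to 5 FPKM, both short of the limit. PCDHB10 and PCDHB13 were lower in HeyC2 and higher in SKOV3. PCDHB10 went from 0.64 to 3.05 FPKM in SKOV3, a relative log2 change of 1.85 (1.15 to 2.90), and PCDHB13 from 2.45 to 8.90, a relative log2 change of 1.58 (1.27 to 1.98). Before TET1, PCDHB10 was the highest beta member of HeyC2 and at 0.64 FPKM below the median beta member of SKOV3, which was 0.74.

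The other genes of the pathway were taken from lists. Among 21 regulators of protocadherin promoters and chromatin, none was higher and 1 was lower of the 20 that passed in HeyC2, and 3 were higher, TET1 among them, and 4 lower of 21 in SKOV3. Their median relative log2 changes were -0.11 and -0.30, where the median of all genes is 0 by construction. In SKOV3, genes with a mean of at least 20 FPKM had a median of -0.29, and 31.2% of them were lower. The shares higher and lower, 0% and 5% in HeyC2 and 14.3% and 19% in SKOV3, lay below those of all genes, 16.8% and 12.5% in HeyC2 and 25.8% and 21.4% in SKOV3. CTCF, which binds these promoters, was at 12.53 and 12.38 FPKM in HeyC2 and at 42.44 and 37.51 in SKOV3, with relative log2 changes of -0.09 and -0.42. The de novo DNA methyltransferase DNMT3B was at 5.52 and 2.74 FPKM in HeyC2 and at 8.59 and 49.45 in SKOV3, with relative log2 changes of -1.06 and 2.27. The maintenance methyltransferase DNMT1 was at 81.53 and 39.17 FPKM in SKOV3, and the cohesin subunit SMC1A at 57.14 and 25.40, with relative log2 changes of -1.29 and -1.41. The other lower regulators in SKOV3 were the cohesin subunits RAD21 and STAG2, both at -0.62. All 4 lower regulators and CTCF had means of at least 20 FPKM in SKOV3, so the median of -0.29 is the nearer reference for them.

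Of 12 nonclustered protocadherins, which lie elsewhere or outside the arrays and lack the shared exons, 2 passed in HeyC2 with 1 higher, and 8 passed in SKOV3 with 4 higher and 4 lower, at median relative log2 changes of 0.34 and 0.00. In SKOV3 both shares were 50%, beside 25.8% and 21.4% of all genes. Most of these genes had means of 0.5 to 5 FPKM, where 47.2% of all genes were higher and 15.8% lower. PCDH1 was at 62.49 and 100.71 FPKM in HeyC2 and at 1.16 and 10.65 in SKOV3, with relative log2 changes of 0.61 and 2.85. PCDH17 was at 0.11 and 22.24 FPKM in SKOV3, and PCDH19 at 1.81 and 0.38, with relative log2 changes of 6.49 and -2.23. PCDH17 passed only through the TET1 library and PCDH19 only through the control.

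Among 17 cytoplasmic partners and proteases, such as the kinases and WAVE complex subunits that bind protocadherin tails and the gamma-secretase subunits that cleave them, all passed in both lines, with 2 higher and 1 lower in HeyC2 and 1 higher and 1 lower in SKOV3, at medians of -0.11 and -0.08, and each of these shares, 5.88% to 11.8%, was below that of all genes. The presenilin PSEN2 was higher in HeyC2, at 3.87 and 8.87 FPKM, and lower in SKOV3, at 13.85 and 8.47. Among 16 neighbours on the same chromosome band, 13 passed in each line, with 1 higher and none lower in HeyC2 and 4 higher and 2 lower in SKOV3, at medians of 0.00 and -0.25. Their shares in SKOV3, 30.8% and 15.4%, were near those of all genes, 25.8% and 21.4%. RELL2, to one side of the gamma cluster, was higher in both lines, with 7.68 and 20.86 FPKM in HeyC2 and 2.16 and 10.29 in SKOV3. TAF7, which lies between the beta and gamma arrays, changed by -0.47 in HeyC2 and -0.04 in SKOV3 on the relative log2 scale.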

How the data were processed

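RNA from 4 cultures had been sequenced as paired-end TruSeq libraries, and reads had been aligned to hg19 with Bowtie2 2.2.6 and quantified with RSEM 1.2.17 per the labels. The deposited values were FPKM per gene, with each TET1 column multiplied by the authors by 1 constant that set GAPDH equal to its control. The constant was recovered from the spacing of the 2-decimal values below 40 FPKM (99.8% of distinct values on the grid in HeyC2, 99.7% in SKOV3) and divided out. A pseudocount of 0.1 FPKM, a minimum mean of 0.5 FPKM over both libraries of a line, centring on the median of all genes that passed, and a fold of 1.5 were used. Fragment numbers were estimated from the step of low FPKM values of single-transcript genes and, for alpha and gamma members, from the length of the variable exon, so they are approximate. Intervals are exact (Clopper-Pearson) at 95% and cover counting error only. Columns of other samples numbered 0.

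Members and lists were chosen with earlier results of these data known. Named were the 3 members of highest mean level per cluster, the 3 highest and 3 lowest changes per line, the C-type members and those ranked next to the limit. Other genes given with values were chosen after their values were seen. The self-test of the calculation used simulated libraries. Python 3.11.15, numpy 2.4.6, pandas 2.3.3 and scipy 1.17.1 were used. Alternatives were other pseudocounts, filters, scalings and folds, and centring on genes of 0.5 to 5 FPKM and sums without C-type members were added after seeing the data. The promoter stretch of PCDHGC3 is not reported here.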

Additional observations from a re-analysis of the deposited data

Results flagged for a closer look

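PCDHB10 was at least 1.5-fold lower with TET1 in HeyC2 and at least 1.5-fold higher in SKOV3, with relative log2 changes of -1.13 and 1.85. PCDHB13 likewise lay on opposite sides, at -0.61 and 1.58, and its HeyC2 counting interval included no change. With 1 library per condition, the difference between the lines was not tested for either gene.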

How the results depend on the processing

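The labels number no replicates, and no fit that pairs control and TET1 over the 2 lines was made. Of 108 values of the cluster sums, counts and medians under an alternative, 67 stayed within the counting interval or within 1.5 times the count. Another 41 moved and 0 reversed a change of 1.5-fold or more. The medians have no counting interval of their own. An interval as wide as that of the sum over all members was placed around them, which does not measure the error of a median. A reversal could be called only for sums and medians that had changed at least 1.5-fold, so the 0 does not cover the other values. Among those, the SKOV3 gamma sum went from 0.38 to -0.11 and the HeyC2 median from 0.35 to -0.11, both counted as moved. With 0.5 to 5 FPKM genes as the centre, chosen after seeing the data, the SKOV3 sums of alpha, beta and gamma were 0.18, 0.47 and -0.11, 7 members were lower, 4 of them not C-type, and the median was 0.31. Without centring these sums were 0.92, 1.21 and 0.62 and the SKOV3 median 1.05, and 1 member was lower in HeyC2. Upper-quartile scaling gave 1.11 for the SKOV3 beta sum and a median of 0.95. Without the highest member (PCDHA3, PCDHB2 or PCDHGC3) the alpha sum was 0.51 in HeyC2, and the alpha, beta and gamma sums 0.44, 1.21 and 0.56 in SKOV3. The members' own medians were 1.05 for beta in HeyC2 and 1.31 and 1.58 for alpha and beta in SKOV3, and without C-type members the SKOV3 alpha and gamma sums were 1.07 and 0.55. A filter also changes the genes whose median is the centre. In HeyC2 the counts of higher and lower members were 13 and 9 with no filter, 3 and 1 at a mean of at least 1 FPKM and 0 and 0 at 5 FPKM, and 1 was lower with a pseudocount of 1 FPKM or a 2-fold limit. The HeyC2 median was 0.24 as deposited, 0.18 with a pseudocount of 1, 0.09 at a mean of 1 FPKM and -0.11 at 5 FPKM. In SKOV3 5 members were higher and 0 lower at 5 FPKM (3 and 1 of the same 7 members with the centre unchanged), 5 were lower with no filter and 6 at a 1.2-fold limit, and the median was 0.52 and 0.91 with pseudocounts of 1 and 0.01, and 1.01 and 0.66 at means of 1 and 5 FPKM. Most members rested on under 100 fragments, and the causes were not tested.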
